A study of Mus musculus with 4 samples.

Results

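The genes described here are 37 immediate early genes, chosen by symbol from the 31053 genes of the count matrices, and they are followed through 7 cell types of the young mouse heart. They comprise the AP-1 factors Fos, Fosb, Fosl1, Fosl2, Jun, Junb, Jund, Atf3 and Maff. The other transcription factors are Egr1, Egr2, Egr3, Nr4a1, Nr4a2, Nr4a3, Klf2, Klf4, Klf6, Klf10 and Myc. The remaining members are Ier2, Ier3, Ier5, Dusp1, Dusp2, Dusp5, Dusp6, Zfp36, Btg1, Btg2, Gadd45b, Gadd45g, Ppp1r15a, Mcl1, Cyr61, Ctgf and Socs3. The 4 single-cell libraries come from hearts of mouse offspring aged 6 weeks. In 2 of them, high_fibre 1 and 2, the dams ate a diet high in resistant starch through pregnancy and lactation. In the other 2, control_diet 1 and 2, the dams ate the diet low in resistant starch. From 3 weeks of age all offspring ate one standard chow. No strain, genotype or sex is given in the labels, nor the number of hearts in a library. The p-values for diet within a gate rest on library-to-library spread. Those between gates rest on the spread of gate differences across libraries. Either spread may be technical. Cells were freed by perfusion with collagenase IV at 2 mg/mL together with dispase II at 1 mg/mL, per the labels, and live, metabolically active, nucleated cells were sorted before capture with a 10x Genomics 3′ kit.

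Immediate early genes are transcribed within minutes of a stimulus without new protein synthesis, because their regulators are already present in the cell. Growth factor and stress signals reach them through the ERK, p38 and JNK kinases, which act on factors bound at serum response elements, where SRF binds the CArG box, and at cAMP response elements, where CREB binds. Many of the encoded proteins are transcription factors, and others, such as the dual-specificity phosphatases and the mRNA decay factor Zfp36, shut the response down again. In dissociated tissue the same genes are known to respond to warm enzymatic digestion, so a level in these libraries is a level in cells that went through perfusion, staining and sorting.

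Of 26765 deposited barcodes, 20659 cells were kept, and 17811 (86.2%) passed exactly 1 of 7 gates set on marker UMIs (unique molecular identifiers, which count captured mRNA molecules). The gates held 6159 fibroblasts (Col1a1, Dcn), 6318 endothelial cells (Pecam1, Cdh5), 3091 macrophages (C1qa), 925 pericytes (Kcnj8, Vtn), 152 smooth muscle cells (Myh11), 830 B cells (Cd79a) and 336 T cells (Cd3e). No immediate early gene was used for gating. Defining markers were highest in their own gates, which the gating itself sets, so their levels are no separate check of the gates. Mean C1qa was 7978 CPM (UMIs scaled to a common library total corrected by TMM factors) in the macrophage gate against at most 24.5 CPM in any other. Mean Dcn was 16872 CPM in the fibroblast gate against at most 111 CPM. Some markers were called higher in a second gate at a lower level, such as Pecam1 at 116 CPM in B cells and 71.0 CPM in T cells against 750 CPM in endothelial cells, Col1a1 at 84.2 CPM and Myh11 at 26.2 CPM in pericytes, and Vtn at 110 CPM in smooth muscle. Library totals ran from 27577599 to 69600492 UMIs. In all, 884 barcodes occurred in more than 1 library. Those that control_diet 2 shared had a median of 17669 to 20041 UMIs there and 615 to 680 UMIs in the other libraries. Only the copy with the most UMIs was kept. The smooth muscle gate was the thinnest, with 23, 71, 33 and 25 cells in high_fibre 1 and 2 and control_diet 1 and 2. Markers of other cells were low in most gates, but 4 neutrophil markers summed to 297 to 2000 CPM in the B gate, where control_diet 2 was highest, and in high_fibre 2 they reached 464 CPM in smooth muscle and 614 CPM in T cells. The 4 monocyte markers summed to 396 to 692 CPM in the B gate and 337 to 799 CPM in the T gate. In the endothelial gate 4 erythroid markers summed to 1234 to 7294 CPM and 4 lymphatic markers to 527 to 1097 CPM, and the erythroid sum reached 592 CPM in macrophages of high_fibre 2. Whether these sums come from such cells was not tested, nor was their part in the results.

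Macrophages held the highest summed level of the immediate early genes and pericytes the lowest. Of the UMIs counted in macrophages, the 37 genes together made up 3.37% and 2.19% in high_fibre 1 and 2 and 3.07% and 2.31% in control_diet 1 and 2, a mean of 2.74% ± 0.575 (SD, n = 4 libraries). The pericyte gate held 0.510% ± 0.0765, from 0.440% to 0.613%, so the macrophage share was 5.36 times higher, and 4.22 to 6.98 times in single libraries. On the CPM scale, where TMM factors correct for composition, the ratio was 8.97, with 6.90 to 11.8 in single libraries, and it thus depends on the scaling. Between these lay smooth muscle (1.68% ± 0.554 of counted UMIs), fibroblasts (1.62% ± 0.120), B cells (1.32% ± 0.246), T cells (1.17% ± 0.127) and endothelial cells (0.943% ± 0.128). In each library the macrophage share was above, and the pericyte share below, that of every other gate. On the CPM scale, the macrophage gate had the highest mean for 19 of the 37 genes, and the pericyte gate for 0. For 11 of those 19, the lowest macrophage library was above the highest library of the gate second in mean.

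Each gate was tested against the mean of the other 6 on the log scale with edgeR's quasi-likelihood test. A gene was called at an adjusted p under 0.05 and a log2 difference of at least 1. A gate can thus be called higher although other gates have more CPM, where the remaining gates are near 0. In the macrophage gate 28 of 37 members were called higher, against 19.7% of the 11694 genes tested, and 1 (Ctgf) was called lower, against 9.93%. In the pericyte gate 30 were called lower (10.5% of all genes) and 2, Ctgf and Dusp6, higher (16.7%). The median member differed by 1.74 in macrophages and by -2.12 in pericytes on the log2 scale, where the medians of all genes were 0.09 and 0.00. Fibroblasts had 14 higher and 5 lower (background 20.9% and 8.60%), and endothelial cells 4 higher and 14 lower (17.8% and 9.12%). Smooth muscle had 11 higher and 6 lower (16.3% and 11.8%), B cells 8 and 6 (15.6% and 16.6%), and T cells 8 and 9 (14.2% and 18.3%). Fosl1 did not pass the filter on low counts, with 41 UMIs in all fibroblasts and 12 in all endothelial cells as its 2 highest sums. Scaling mattered for the extremes: with plain library sizes, which move the median of all genes by 0.50 in pericytes and by less in the other gates, 21 members were higher in macrophages and 24 lower in pericytes. Without control_diet 1 the smooth muscle gate had 7 members called higher in place of 11.

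**Figure D1:**
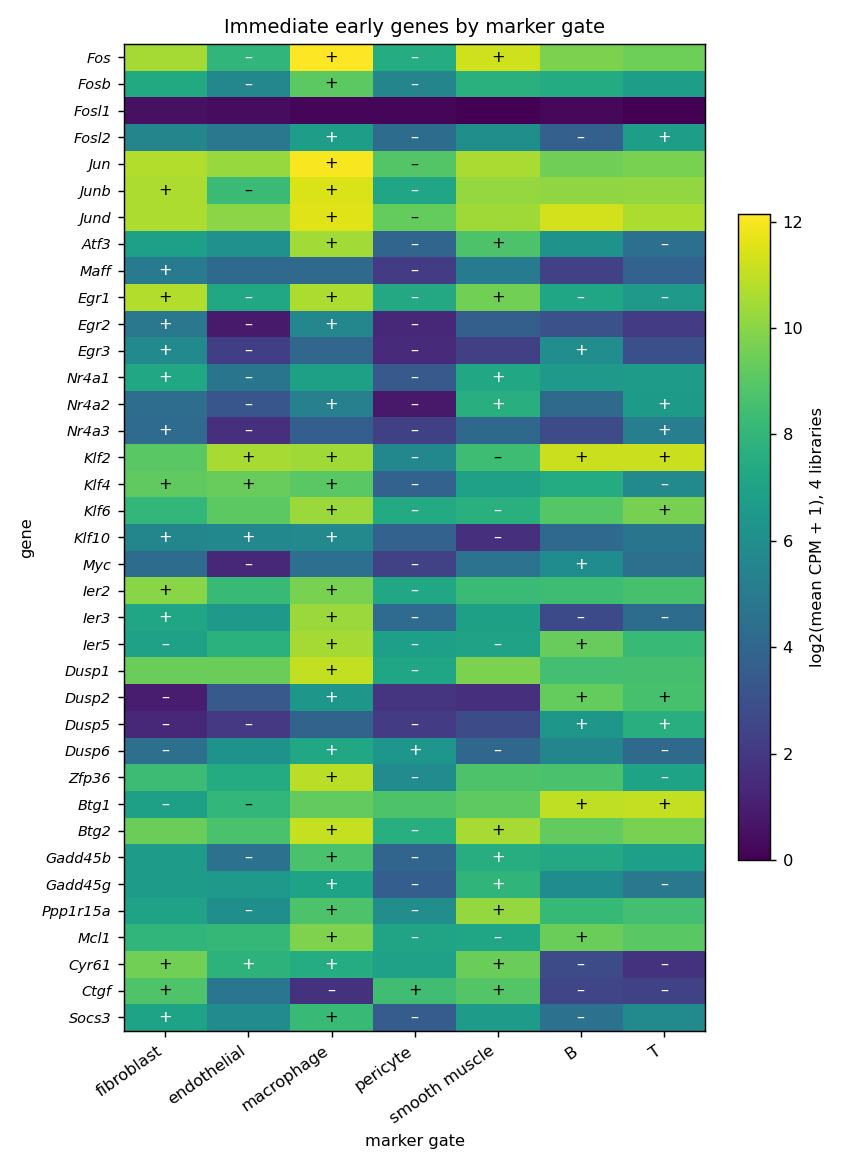
Mean level of each of the 37 genes (rows, in order of role) in 7 marker gates (columns), as log2 of mean CPM plus 1 over 4 libraries. A plus marks a gene called higher than the log-scale mean of the other gates and a dash one called lower. The macrophage column holds 28 plus signs and the pericyte column 30 dashes.

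**Figure D2:**
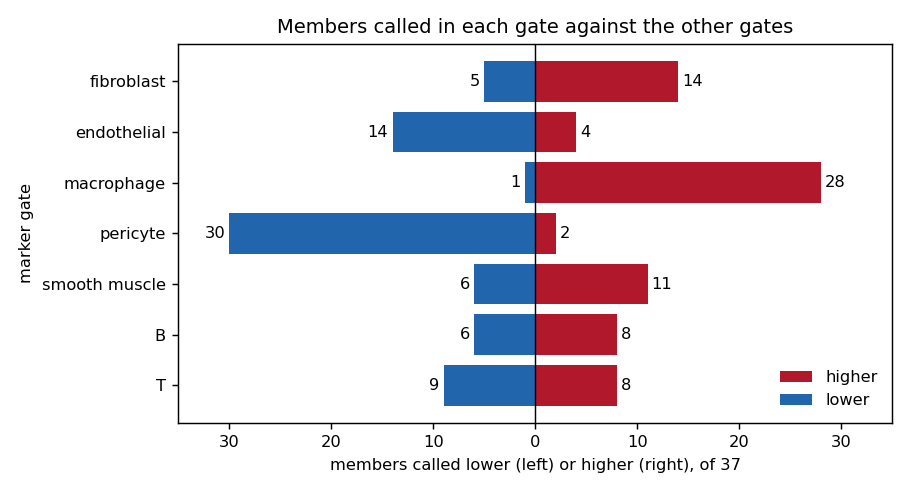
Number of the 37 genes called lower (bars to the left) or higher (bars to the right) in each gate against the other 6, by edgeR. Macrophages have 28 higher and 1 lower, pericytes 2 higher and 30 lower.

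The stretches in front of 5 members are shown because they hold a searched motif and their genes were called higher in differing sets of gates. These were macrophages and smooth muscle for Fos and Btg2, macrophages and fibroblasts for Egr2, B and T cells for Dusp5, and fibroblasts, smooth muscle, endothelial cells and macrophages for Cyr61. Of these calls, those of Btg2 in smooth muscle and Cyr61 in macrophages did not hold under all alternatives. The sequences come from RefSeq on GRCm38.p6, 5′ to 3′ on the gene's strand, and end just before the annotated start or, for Dusp5, before the first exon annotated by GENCODE. Capitals mark the motif named after each position. They lie at chr12:85473640-85473889 (Fos, plus strand, TATAAA), chr10:67537619-67537868 (Egr2, plus, CArG box), chr3:145649986-145650235 (Cyr61, minus, TATAAA), chr19:53528895-53529108 (Dusp5, plus, 2 adjoining CArG boxes) and chr1:134079156-134079405 (Btg2, minus, cAMP response element).
Fos: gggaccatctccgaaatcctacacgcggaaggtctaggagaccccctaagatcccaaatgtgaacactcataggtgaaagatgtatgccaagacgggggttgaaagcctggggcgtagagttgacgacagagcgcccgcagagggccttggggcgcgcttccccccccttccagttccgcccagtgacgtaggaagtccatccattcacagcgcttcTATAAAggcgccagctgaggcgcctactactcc
Egr2: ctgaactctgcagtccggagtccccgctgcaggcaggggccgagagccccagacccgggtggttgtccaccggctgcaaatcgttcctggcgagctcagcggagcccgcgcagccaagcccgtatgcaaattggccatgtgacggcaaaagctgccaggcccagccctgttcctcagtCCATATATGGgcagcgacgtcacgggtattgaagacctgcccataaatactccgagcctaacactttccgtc
Cyr61: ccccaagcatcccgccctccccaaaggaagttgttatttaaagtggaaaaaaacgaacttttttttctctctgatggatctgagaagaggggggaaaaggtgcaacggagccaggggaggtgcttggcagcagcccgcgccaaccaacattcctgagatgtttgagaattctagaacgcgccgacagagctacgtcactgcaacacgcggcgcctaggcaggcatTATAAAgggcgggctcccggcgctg
Dusp5: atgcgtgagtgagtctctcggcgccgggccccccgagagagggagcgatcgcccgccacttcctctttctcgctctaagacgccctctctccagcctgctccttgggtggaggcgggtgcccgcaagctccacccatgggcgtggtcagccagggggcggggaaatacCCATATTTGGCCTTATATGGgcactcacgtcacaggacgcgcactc
Btg2: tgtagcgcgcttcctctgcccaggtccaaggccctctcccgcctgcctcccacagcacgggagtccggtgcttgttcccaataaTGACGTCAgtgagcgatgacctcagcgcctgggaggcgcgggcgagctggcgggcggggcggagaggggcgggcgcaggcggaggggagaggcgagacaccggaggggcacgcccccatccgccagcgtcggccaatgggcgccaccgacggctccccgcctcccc
RefSeq entries were matched for 30 of the 37 genes (36 promoters), and the 250 bases before each start were searched on both strands. Egr1, Egr3, Fosl1, Ier2, Klf10, Myc and Ctgf had no matched entry and were not searched. Bases further upstream were not searched for any gene, so a gene without a match here may hold the motif there. The CArG box is CC, 6 bases that are each A or T, then GG, and lay before Egr2, Dusp5 and Zfp36 (3 of 30 genes), and in 1.47% of all 32851 promoters of the same length. The full cAMP response element TGACGTCA lay before Btg2, Dusp1, Maff and Ppp1r15a, and in 1.55% of all promoters. TATAAA lay before Fos, Cyr61, Btg1, Gadd45b, Gadd45g and Nr4a2, and in 12.4% of all promoters, while the AP-1 site TGANTCA lay before 0 of the 30 genes and in 6.75% of all. A gene was counted if any of its RefSeq starts had the motif, while the shares of all are per promoter. For Dusp5 the first box began 82 bases before the RefSeq start. Egr2 has several RefSeq starts, and its box began 72 bases before the start shown, which lies within the gene annotated by GENCODE. The most upstream Egr2 start had no box. These are matches of letters and not measured sites.

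Among the AP-1 factors, 7 of the 8 tested were called higher in macrophages and 8 of 8 lower in pericytes. The Jund call in macrophages and the Fosl2, Jund and Maff calls in pericytes did not hold under all 13 alternatives. Fos, which pairs with Jun proteins to form AP-1 (chr12:85473890-85477273), stood at 5196 and 3553 CPM in macrophages of high_fibre 1 and 2 and at 5270 and 3962 CPM in those of control_diet 1 and 2. In pericytes the 4 libraries held 278, 169, 161 and 124 CPM. The macrophage libraries were all far above the pericyte libraries, but overlapped with smooth muscle, where control_diet 1 reached 3895 CPM and the other 3 libraries 1669 to 2623 CPM. The log2 difference from the other gates was 2.74 ± 0.15 (SE; edgeR adjusted p = 1.59e-12) in macrophages, 1.67 ± 0.17 in smooth muscle and -2.23 ± 0.21 in endothelial cells. Atf3, a stress-induced repressor of the ATF family (chr1:191170296-191218039), was the AP-1 member most strongly tied to macrophages. Its level there was 2126 and 901 CPM in high_fibre 1 and 2 and 1749 and 845 CPM in control_diet 1 and 2, against 331 to 560 CPM in smooth muscle and 7.08 to 30.8 CPM in pericytes. All 4 macrophage libraries were above every library of any other gate, with a log2 difference of 4.36 ± 0.17 (edgeR adjusted p = 6.74e-15). Jun averaged 4152 CPM ± 1026 (SD, n = 4) in macrophages and 473 CPM ± 154 in pericytes, and its other gates lay between 725 and 1691 CPM. Junb was called higher in fibroblasts (1572 CPM ± 75.6) as well as macrophages (2746 CPM ± 732), and lower in endothelial cells (313 CPM ± 89.3). Jund averaged 3019 CPM in macrophages, 2549 CPM in B cells and 615 CPM in pericytes. Fosb was called higher in macrophages alone (532 CPM ± 109). Fosl2 was higher in macrophages (109 CPM ± 42.5) and in T cells (108 CPM ± 24.0), and lower in B cells (12.4 CPM ± 8.89), so the lymphocyte gates differed in this gene. Maff, a small MAF protein, was the 1 tested AP-1 member not called in macrophages; it was called higher in fibroblasts (31.8 CPM ± 5.92).

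The EGR zinc-finger factors were fibroblast genes as much as macrophage genes. All 3 were called higher in fibroblasts and lower in both endothelial cells and pericytes. The Egr3 call in endothelial cells and the Egr1 call in pericytes did not hold under all alternatives. Egr1, a broad growth-response activator, stood at 2158, 1374, 1622 and 1560 CPM in fibroblasts of high_fibre 1 and 2 and control_diet 1 and 2. In macrophages it stood at 2285, 1103, 1860 and 1129 CPM, so these gates overlapped, and each was above every endothelial library (108 to 213 CPM). The log2 differences were 2.72 ± 0.16 in fibroblasts (edgeR adjusted p = 8.20e-12) and 2.55 ± 0.16 in macrophages. Egr1 was lower in B cells (138 CPM ± 48.6) and T cells (93.8 CPM ± 55.3). Egr2, known for roles in myelination and lymphocyte tolerance, was present at 56.7, 39.1, 49.1 and 46.7 CPM in macrophages and at 42.5, 14.9, 31.2 and 24.2 CPM in fibroblasts. In endothelial cells only 13, 10, 9 and 1 UMIs were counted for it in the 4 libraries, a log2 difference of -3.51 ± 0.44. Egr3 followed another order, with 67.5, 38.1, 45.3 and 66.4 CPM in fibroblasts and 85.6, 41.8, 82.7 and 31.8 CPM in B cells. Both gates were above the macrophages (8.27 to 22.6 CPM), with log2 differences of 2.80 ± 0.18 and 3.19 ± 0.29.

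The NR4A orphan nuclear receptors had their highest means in smooth muscle and T cells. Nr4a2 stood at 189, 100, 374 and 150 CPM in smooth muscle of high_fibre 1 and 2 and control_diet 1 and 2, from 235 UMIs in all. In T cells it stood at 166, 49.5, 106 and 71.1 CPM, and in pericytes 3, 0, 0 and 1 UMIs were counted. The smooth muscle and T ranges overlapped, and the log2 differences were 3.91 ± 0.32 (edgeR adjusted p = 2.74e-09) and 2.55 ± 0.34 (adjusted p = 2.42e-06). Nr4a3 was called higher in T cells, at 41.4, 36.6, 55.4 and 9.48 CPM, where control_diet 2 was the lowest library (log2 difference 2.28 ± 0.33). Nr4a3 was also called higher in fibroblasts (mean 17.8 CPM) and Nr4a2 in macrophages, but neither call held under all alternatives. Nr4a1, an early marker of antigen receptor signalling in lymphocytes, was called higher in fibroblasts (149 CPM ± 38.9) and smooth muscle (155 CPM ± 108) and was not called in B or T cells (94.6 and 100 CPM). All 3 receptors were called lower in endothelial cells and in pericytes. The calls of Nr4a1 in smooth muscle, Nr4a2 in endothelial cells and Nr4a3 in pericytes did not hold under all alternatives either.

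All 4 Krüppel-like factors were called higher in macrophages, 3 also in endothelial cells, and 3 were called lower in pericytes and 3 in smooth muscle. The Klf2 call in macrophages and the Klf6 call in T cells did not hold under all alternatives. Klf2, a flow-induced factor of endothelium that also maintains lymphocyte quiescence, stood at 1744, 1394, 1574 and 1275 CPM in endothelial cells of high_fibre 1 and 2 and control_diet 1 and 2. In T cells it stood at 2506, 1949, 2107 and 2522 CPM, and in B cells at 3159, 2278, 2250 and 1449 CPM. Pericytes were far below, at 76.7, 48.4, 39.2 and 34.2 CPM. Every pericyte library was below every library of these gates, and the log2 differences were 1.25 ± 0.12 in endothelial cells, 1.95 ± 0.12 in B cells, 1.97 ± 0.12 in T cells and -4.46 ± 0.20 in pericytes (edgeR adjusted p = 3.54e-14 for the last). Klf4, a related factor of endothelium and myeloid cells, was shared by endothelial cells (786, 569, 663 and 525 CPM), fibroblasts (567 CPM ± 58.0) and macrophages (530 CPM ± 211), whose libraries overlapped. It was lower in pericytes (1.18 to 29.5 CPM) and T cells (14.2 to 92.7 CPM). Klf10, a TGF-beta-induced factor, had nearly the same mean in endothelial cells (50.5 CPM), macrophages (51.7 CPM) and fibroblasts (46.3 CPM). Its endothelial libraries were 64.9, 47.0, 49.4 and 40.6 CPM (log2 difference 1.60 ± 0.14), while smooth muscle held 2 UMIs in all. Klf6 was higher in macrophages (1261 CPM ± 253) and T cells (800 CPM ± 200). Myc, the growth-promoting factor, was a B-cell gene here, at 61.6, 75.0, 53.7 and 45.9 CPM, and its 4 B libraries were above every library of any other gate (log2 difference 2.58 ± 0.18). In endothelial cells it was at 1.17, 1.84, 1.31 and 1.90 CPM, from 64 UMIs, with a log2 difference of -3.57 ± 0.20.

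All 3 IER genes were called higher in macrophages and lower in pericytes. The Ier2 call in macrophages and the Ier5 call in pericytes did not hold under all alternatives. Ier3, a stress and survival regulator (chr17:35821684-35822923), showed the largest macrophage difference of the 36 genes tested, at 4.93 ± 0.15 on the log2 scale (edgeR adjusted p = 1.43e-16). It stood at 1639 and 778 CPM in macrophages of high_fibre 1 and 2 and at 1696 and 883 CPM in those of control_diet 1 and 2. Fibroblasts held 206, 125, 116 and 106 CPM, while B cells gave 16, 2, 6 and 0 UMIs. Every macrophage library was above every library of any other gate. Ier5, a regulator of heat shock factor activity, was higher in macrophages (1424 CPM ± 316) and B cells (631 CPM ± 167), and lower in fibroblasts, pericytes and smooth muscle (115 to 126 CPM on average). Ier2 had its highest mean in fibroblasts (1004 CPM ± 125) with macrophages next (840 CPM ± 131), and these libraries overlapped.

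The dual-specificity phosphatases, which switch off MAP kinases, divided by cell type. Dusp2, a nuclear ERK phosphatase of immune cells (chr2:127336159-127338376), stood at 641, 622, 687 and 495 CPM in B cells of high_fibre 1 and 2 and control_diet 1 and 2. In T cells it stood at 302, 282, 337 and 612 CPM, and in fibroblasts at 1.50, 1.53, 0.448 and 0.386 CPM, from 92 UMIs. Dusp2 was called higher in macrophages too. The lymphocyte gates overlapped only through control_diet 2, where the T value was above the B value, and their log2 differences were 5.76 ± 0.29 and 4.81 ± 0.40 (edgeR adjusted p = 8.94e-13 and 3.19e-09). The fibroblast difference was -4.96 ± 1.66 (adjusted p = 0.0121) and lost its call without high_fibre 2 (adjusted p = 0.177). Dusp5, an ERK phosphatase that is itself induced by ERK, had the reverse order, with 321, 162, 251 and 71.1 CPM in T cells and 123, 59.1, 124 and 28.3 CPM in B cells. In fibroblasts it was between 1.03 and 2.22 CPM (log2 difference -3.26 ± 0.33), and in T cells its difference was 4.88 ± 0.17, with B cells at 3.39 ± 0.18. GENCODE annotates an antisense transcript over the start of Dusp5, and whether counting used strand is not given in the sources used here. Dusp6, a cytoplasmic ERK phosphatase, was 1 of the 2 members called higher in pericytes, at 90.5, 82.3, 72.3 and 80.2 CPM (log2 difference 1.06 ± 0.20, edgeR adjusted p = 1.32e-04). Macrophages had more of it (112, 162, 133 and 194 CPM), and smooth muscle less, with 1, 11, 7 and 3 UMIs. Dusp6 was also called higher in macrophages and lower in fibroblasts and T cells, though its T-cell call did not hold under all alternatives. The smooth muscle difference, -1.60 ± 0.50 (adjusted p = 0.0144), lost its call without high_fibre 2 (adjusted p = 0.127) and without control_diet 1 (0.0512). Dusp1, which dephosphorylates p38 and JNK, was called higher in macrophages (2053 CPM ± 573) and lower in pericytes (141 CPM ± 23.4), with the other 5 gates between 362 and 855 CPM and not called.

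Zfp36, or tristetraprolin, which binds AU-rich elements and speeds mRNA decay, stood at 1994, 1512, 2164 and 1777 CPM in macrophages of high_fibre 1 and 2 and control_diet 1 and 2. Smooth muscle was next at 299, 325, 789 and 310 CPM, below every macrophage library. The macrophage log2 difference was 3.20 ± 0.14 (edgeR adjusted p = 3.01e-14), and Zfp36 was called lower in pericytes (56.6 CPM ± 13.8) and T cells (128 CPM ± 14.4). Btg1 and Btg2, antiproliferative partners of the deadenylation machinery, did not share a pattern. Btg1 was a lymphocyte gene, with 2036 CPM ± 430 in B cells and 2059 CPM ± 256 in T cells against 117 CPM ± 10.7 in fibroblasts, and it was the only tested RNA decay member not called in macrophages. Btg2 was higher in macrophages (2155 CPM ± 427) and smooth muscle (1490 CPM ± 657), whose libraries overlapped, and lower in pericytes (198 CPM ± 51.0). Its smooth muscle call did not hold under all alternatives.

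Among the stress and survival genes, smooth muscle led for 2 of 4. Ppp1r15a, also called GADD34, which restores translation after stress by directing dephosphorylation of eIF2-alpha, stood at 950, 791, 1853 and 1132 CPM in smooth muscle of high_fibre 1 and 2 and control_diet 1 and 2. Macrophages held 624, 348, 457 and 272 CPM, so each smooth muscle library was above each macrophage library. The smooth muscle log2 difference was 2.82 ± 0.15 (edgeR adjusted p = 3.24e-12). Gadd45g was also higher in smooth muscle (243 CPM ± 99.2, 272 UMIs) and in macrophages (133 CPM ± 21.3), and lower in pericytes (11.3 CPM ± 0.965). Gadd45b was highest in macrophages at 721, 249, 444 and 211 CPM in the same order, with both repeat 1 libraries above both repeat 2 libraries. Mcl1, the BCL-2 family survival factor, was called higher in macrophages (872 CPM ± 161) and B cells (685 CPM ± 61.9) and lower in pericytes (137 CPM) and smooth muscle (140 CPM). The Gadd45g call in macrophages and the Mcl1 call in pericytes did not hold under all alternatives.

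The secreted matricellular genes were called higher in fibroblasts and smooth muscle and lower in B and T cells, and they parted in macrophages. Ctgf, a YAP and TGF-beta target that acts on matrix and cell adhesion (chr10:24595442-24598683), stood at 485, 415, 411 and 487 CPM in fibroblasts of high_fibre 1 and 2 and control_diet 1 and 2. In smooth muscle it stood at 299, 643, 434 and 495 CPM, and in pericytes at 368, 368, 271 and 370 CPM. Macrophages held 2.18, 3.43, 1.92 and 2.11 CPM. The smooth muscle range overlapped with both of the others, every fibroblast library was above every pericyte library, and all 3 gates lay above every macrophage library, with log2 differences of 4.14 ± 0.12, 4.26 ± 0.18 and 3.67 ± 0.14, and -4.57 ± 0.46 in macrophages (edgeR adjusted p = 6.71e-09). T cells gave 2, 3, 4 and 0 UMIs of Ctgf. Cyr61, its close relative, stood at 656, 841, 660 and 803 CPM in fibroblasts and at 708, 869, 723 and 422 CPM in smooth muscle, and endothelial cells held 212, 253, 228 and 221 CPM. The log2 differences were 3.60 ± 0.14, 3.47 ± 0.19 and 1.63 ± 0.18, while B cells gave 5, 10, 1 and 1 UMIs and T cells 0, 3, 2 and 0. Macrophages held 179 CPM ± 20.8 of Cyr61 and were called higher (1.21 ± 0.20), while pericytes averaged 123 CPM ± 30.6 and were not called. The macrophage mean was below those of fibroblasts, smooth muscle and endothelial cells. Both the endothelial and the macrophage call are against a log-scale mean that includes the few UMIs of B and T cells. The Cyr61 call in macrophages did not hold under all alternatives. Socs3, the feedback inhibitor of JAK-STAT signalling, was higher in macrophages (295 CPM ± 50.1) and fibroblasts (130 CPM ± 34.3), and lower in pericytes (10.6 CPM ± 2.06) and B cells (22.4 CPM ± 17.9).

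**Figure D3:**
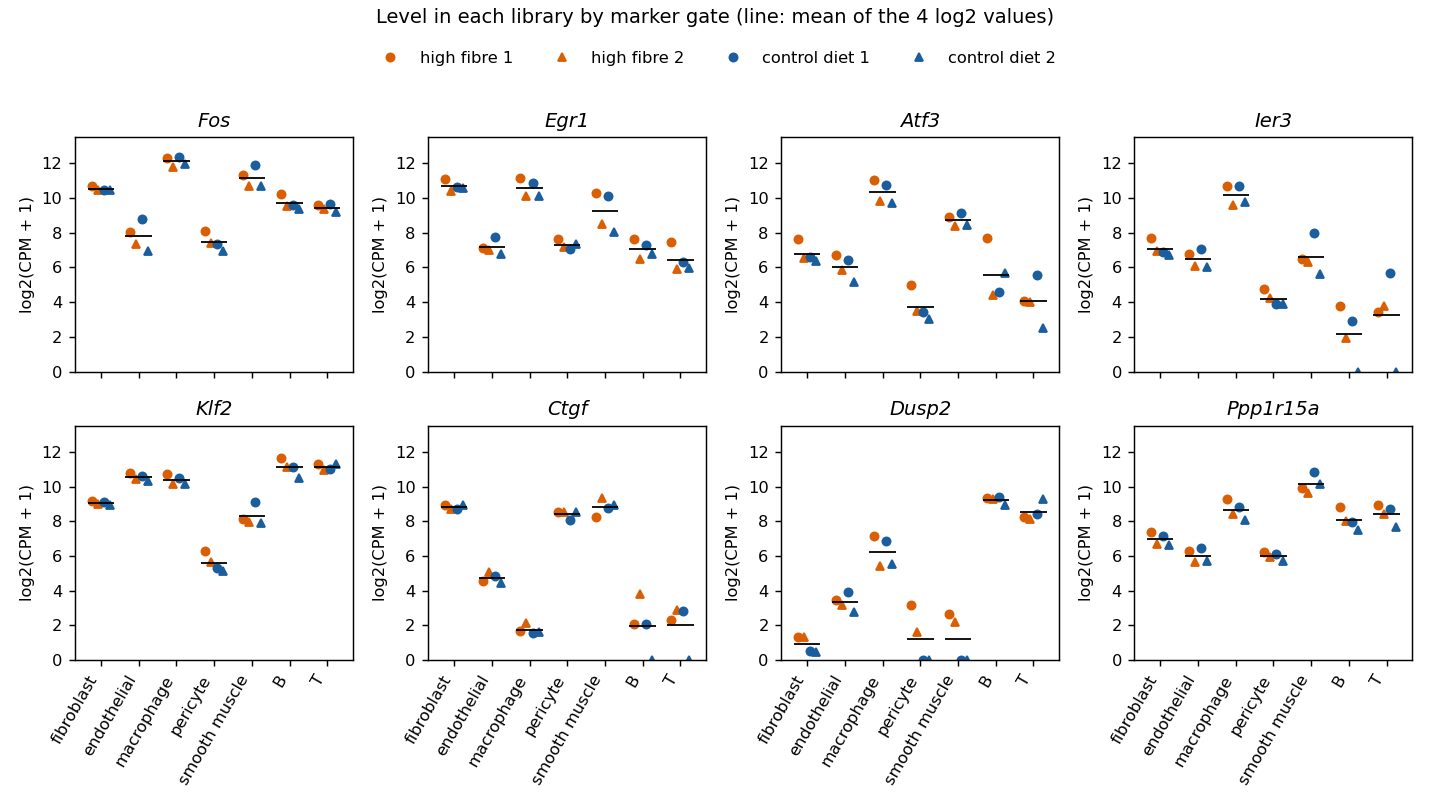
Level of 8 members in each of the 4 libraries by gate, as log2 of CPM plus 1; orange marks high_fibre and blue control_diet, circles repeat 1 and triangles repeat 2, and black lines the mean of the 4 log2 values. Atf3 and Ier3 stand out in macrophages, Dusp2 in B and T cells, Ppp1r15a in smooth muscle, and Ctgf falls to 1.92 to 3.43 CPM in macrophages.

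The gates also differed cell by cell once every cell was thinned to 2000 UMIs, which left out 0 to 210 shallower cells per gate. The median macrophage held UMIs of 14 to 18 of the 37 genes, depending on the library. The median fibroblast held 10 to 11, the median endothelial cell 7 to 8 and the median pericyte 5 to 6. Smooth muscle cells varied widely, with a median of 6 to 12 and, in high_fibre 1, quartiles at 4.5 and 14 genes. Fos was detected in 90.6% of macrophages (mean of 4 libraries, 86.9% to 93.3%) and 62.1% of fibroblasts (61.0% to 64.7%). It was detected in 17.4% of endothelial cells (11.9% to 22.6%) and 19.4% of pericytes (13.6% to 22.3%). Without thinning the Fos shares were 95.3%, 79.4%, 28.4% and 28.2% in that order, at median depths of 9759 to 13266, 11988 to 16330, 4760 to 6233 and 4334 to 5394.5 UMIs. The lymphocyte phosphatases were detected in many cells, with Dusp2 in 60.2% of B and 39.0% of T cells and Dusp5 in 10.5% and 26.3%. Free RNA was not modelled, and for comparison Dusp2 was detected in 0.249% and Dusp5 in 0.245% of thinned fibroblasts. Ctgf, abundant in fibroblasts, was detected in 0.388% of macrophages and 0.594% of T cells. For Fos no gate is known to lack the gene, so it has no background share here, and how much of its lower shares is free RNA was not tested.

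Other genes tied to the early response followed the members in part. Of 20 early response genes outside the 37, 17 were tested. In macrophages 9 were called higher and 1 lower, against 19.7% and 9.93% of all genes tested. In pericytes 3 were higher, near the 16.7% of all genes, and 8 lower, against 10.5%. Among them Cebpd averaged 733 CPM ± 143 in fibroblasts (log2 difference 3.46 ± 0.14), and Errfi1, an EGF receptor inhibitor, 917 CPM ± 217 in smooth muscle (3.41 ± 0.17). The 8 NF-kappaB feedback genes had 7 higher in macrophages, 6 higher in B cells and 7 lower in smooth muscle. The shares of all genes were 19.7%, 15.6% and 11.8%. In that list Nfkbiz averaged 498 CPM ± 210 in macrophages (3.61 ± 0.11), Tnfaip3 204 CPM ± 32.1 in T cells (4.38 ± 0.32), and Birc3 and Nfkbie gave 1 UMI each in smooth muscle. Of 8 inducible heat shock genes, 7 were higher in macrophages and 0 in pericytes, against 19.7% and 16.7% of all genes. Hspa1a, a near-identical copy of Hspa1b whose reads can be split between them, averaged 3186 CPM ± 1028 in macrophages, and Hspb1 1914 CPM ± 464 in endothelial cells. The upstream kinases and factors did not follow this pattern. Of 20 tested, 3 were higher and 1 lower in macrophages, against 19.7% and 9.93% of all genes. In pericytes 0 were higher and 3 lower, against 16.7% and 10.5%. Rps6ka1, an ERK-activated kinase, averaged 67.9 CPM ± 4.77 in macrophages, and Elk3, a partner of SRF, 293 CPM ± 24.0 in endothelial cells. Among 12 AP-1 partners, 11 were tested and 7 were higher in macrophages (19.7% of all genes), led by Batf3 (89.7 CPM ± 2.10) and Maf (1203 CPM ± 151). Among 12 mRNA decay genes, 3 were higher and 1 lower in macrophages, near the 19.7% and 9.93% of all genes. Zfp36l2, a relative of Zfp36, averaged 668 CPM ± 31.0 there and 39.4 CPM ± 11.5 in smooth muscle.

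The libraries also differed by repeat number. In macrophages both repeat 1 libraries were above both repeat 2 libraries for 30 of 36 members, against 18.5% of all genes tested in that gate. The same held for 26 of 35 in endothelial cells (17.6%), 18 of 29 in smooth muscle (17.1%), 20 of 28 in T cells (23.9%), 17 of 37 in fibroblasts (16.9%) and 14 of 29 in B cells (21.1%). In pericytes it held for 5 of 28 (17.7%), a share near the background. The denominators are the members that passed the count filter in each gate, and no test was made, because the labels do not say what a repeat number shares. The median ratio of repeat 1 to repeat 2 was 0.55 in macrophages and 0.40 in endothelial cells on the log2(CPM + 1) scale, where all genes gave -0.01 and 0.00. It was 0.66 within high_fibre and 0.45 within control_diet macrophages. In fibroblasts it was 0.28 within high_fibre and 0.07 within control_diet, with 31 and 23 of 37 members higher in library 1. Atf3 in macrophages, at 2126 and 1749 CPM in the repeat 1 libraries and 901 and 845 CPM in the repeat 2 libraries, is an example, and Nr4a2 another, at 72.8 and 43.4 CPM against 23.0 and 11.8 CPM. Myc and Dusp6 ran the other way in macrophages, and Gadd45g, Cyr61, Ctgf and Socs3 overlapped.

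Some other lists moved with the repeat number in macrophages too. Both repeat 1 libraries were above both repeat 2 libraries for 15 of 18 early response genes outside the members and 7 of 8 NF-kappaB feedback genes. The share of all genes was 18.5%. Heat shock genes, with 2 of 8, were near that share, and upstream signalling genes, with 0 of 20, were below it. The summed NF-kappaB feedback level in macrophages was 3037, 1274, 2450 and 1308 CPM in high_fibre 1 and 2 and control_diet 1 and 2. The summed heat shock level was 19645, 11114, 10920 and 7648 CPM, with high_fibre 1 highest for 8 of 8 genes. Median mitochondrial shares of endothelial cells were 8.90% and 8.76% in the repeat 1 libraries and 7.28% and 6.75% in the repeat 2 libraries. In macrophages they were 5.64% in each repeat 1 library, against 6.21% and 5.59%. Median depth did not separate the repeat numbers in macrophages (10217.5 and 9759 UMIs against 10725.5 and 13266). The part of these measures in the members' levels was not tested.

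**Figure D4:**
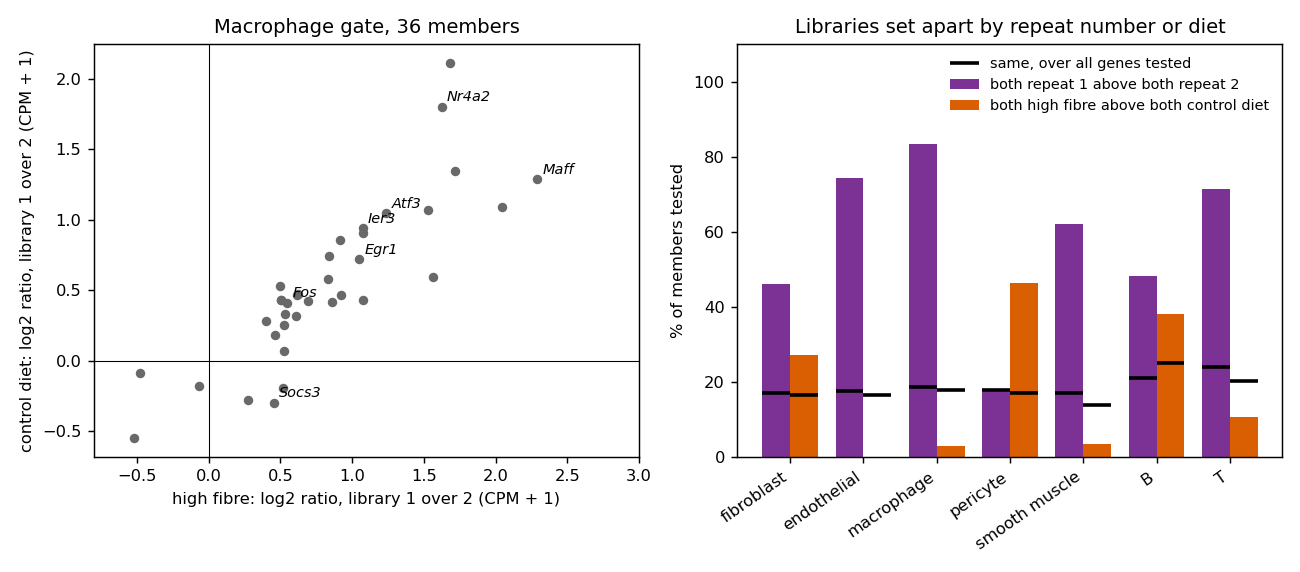
Left, each point is 1 of 36 members in macrophages, with the log2 ratio of library 1 over library 2 within high_fibre (x) and within control_diet (y), from CPM plus 1; 30 of them have both repeat 1 libraries above both repeat 2 libraries. Right, the percentage of tested members in each gate with both repeat 1 libraries above both repeat 2 libraries (purple) or both high_fibre above both control_diet libraries (orange), with black lines for the same share over all genes.

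The maternal diet comparison asked whether early genes differed between offspring of high_fibre and control_diet dams within each gate. With edgeR's quasi-likelihood test no member was called in any gate at an adjusted p under 0.05 (0 of 37 in fibroblasts, 35 in endothelial cells, 36 in macrophages, 28 in pericytes, 29 in smooth muscle, 29 in B cells and 28 in T cells). Over all genes 0.00744%, 0.0749%, 0%, 0.0765%, 0%, 0.0285% and 0.128% were called in these gates, 26 calls in all. At an unadjusted p under 0.05 there were 3, 2, 0, 11, 3, 7 and 1 members in the same order, against 6.38%, 5.38%, 4.07%, 5.7%, 3.87%, 3.26% and 4.18% of all genes. DESeq2 called 1 member, Zfp36 in endothelial cells. Zfp36 stood there at 133 and 137 CPM in high_fibre 1 and 2 and at 244 and 187 CPM in control_diet 1 and 2. The diet groups did not overlap, and the log2 difference was -0.67 ± 0.12, with an adjusted p of 0.0830 from edgeR and 0.00386 from DESeq2. It was called by edgeR with plain library sizes (adjusted p = 0.0282) and with no filter on low counts (4.19e-08). The other alternatives that kept every library did not call it, among them the repeat number as a block and doubled gate minimums. Without control_diet 1 the log2 difference was -0.47, and without control_diet 2 it was -0.85.

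More members lay above 0 than below in pericytes, B cells, fibroblasts and macrophages, and fewer in smooth muscle and endothelial cells. In pericytes 24 of 28 members had a log2 fold above 0 (median 0.26, all genes 0.00), and both high_fibre libraries were above both control_diet libraries for 13, against 17.1% of all genes. Btg2 stood there at 248 and 226 CPM in high_fibre and at 132 and 186 CPM in control_diet (log2 0.60 ± 0.15, edgeR adjusted p = 0.197). Cyr61 stood at 158 and 138 CPM against 92.9 and 101 CPM (0.61 ± 0.15, adjusted p = 0.197), and Klf6 at 223 and 180 CPM against 136 and 143 CPM (0.53 ± 0.14, adjusted p = 0.298). Groups did not overlap for these 3 genes, and high_fibre 1 was the highest library for 21 of the 28. Without high_fibre 1, 19 of 28 were above 0, with a median of 0.18. In B cells 23 of 29 were above 0 (median 0.41), and 11 did not overlap with high_fibre above, against 25.0% of all genes, and 0 with high_fibre below, against 8.06%. Btg2 stood at 799 and 724 CPM against 446 and 431 CPM (0.66 ± 0.19, edgeR adjusted p = 0.959), and Gadd45g at 88.8 and 62.0 CPM against 45.1 and 38.9 CPM (0.73 ± 0.29). High_fibre 1 was the highest B library for 24 members and control_diet 2, with 61 cells, the lowest for 22. Without high_fibre 1, 12 of 28 B-cell members were above 0, with a median of -0.02. All 7 tested heat shock genes also had both high_fibre libraries above both control_diet libraries in B cells (median log2 fold 1.43), and all 8 were above 0 in pericytes (median 0.74). Their part was not tested.

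In fibroblasts 32 of 37 members were above 0, with a median of 0.12, and 10 had both high_fibre libraries above both control_diet libraries (16.6% of all genes). Dusp6 stood at 29.0 and 23.7 CPM against 17.4 and 16.3 CPM (log2 0.64 ± 0.13, edgeR adjusted p = 0.230). Dusp2 gave 33 and 43 UMIs in high_fibre and 12 and 4 in control_diet (1.82 ± 0.41, adjusted p = 0.281), and Fosl1 13 and 20 UMIs against 5 and 3 (1.56 ± 0.57, adjusted p = 0.683). Cd79a, the B-cell gate marker, gave 25 and 49 UMIs against 21 and 3 in the same fibroblast sums, and its part in the Dusp2 fold was not tested. Without high_fibre 1 the fibroblast members above 0 numbered 14 of 37.

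In macrophages 28 of 36 were above 0 (median 0.14), but 1 had both high_fibre libraries above both control_diet libraries (17.9% of all genes). The 3 smallest p-values belonged to Ctgf (2.18 and 3.43 CPM against 1.92 and 2.11 CPM), Egr3 (16.5 and 8.27 CPM against 22.6 and 12.1 CPM) and Zfp36 (1994 and 1512 CPM against 2164 and 1777 CPM). Each had an edgeR adjusted p of 1.00. Without high_fibre 1, 2 of 36 macrophage members were above 0, with a median of -0.33, and without high_fibre 2, 34 were, with a median of 0.38.

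Endothelial cells had 14 of 35 members above 0 and a median of -0.02, and 3 had both high_fibre libraries below both control_diet libraries (17.5% of all genes). Ier2 stood at 265 and 256 CPM against 327 and 290 CPM (-0.24 ± 0.10, edgeR adjusted p = 0.876), and Dusp1 at 655 and 608 CPM against 846 and 650 CPM (-0.24 ± 0.12, adjusted p = 0.958). Without control_diet 1, 27 of 36 endothelial members were above 0, and without control_diet 2, 10 of 36. Without high_fibre 1 the count was 4 of 35, and without high_fibre 2 it was 23 of 36.

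Smooth muscle had 8 of 29 above 0 and a median of -0.46, and 2 members had both high_fibre libraries below both control_diet libraries (18.2% of all genes). Ppp1r15a stood at 950 and 791 CPM against 1853 and 1132 CPM (-0.75 ± 0.20, edgeR adjusted p = 0.446). Cyr61 stood at 708 and 869 CPM against 723 and 422 CPM (0.51 ± 0.21), and Klf6 at 294 and 213 CPM against 208 and 125 CPM (0.59 ± 0.25), both at an adjusted p of 0.994. Control_diet 1, with 33 cells, was the highest library for 19 of the 29, and without it 23 were above 0, with a median of 0.16.

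T cells had 15 of 28 above 0 and a median of 0.00, and 3 members had both high_fibre libraries above both control_diet libraries (20.2% of all genes). Dusp2 stood at 302 and 282 CPM against 337 and 612 CPM (-0.77 ± 0.28, edgeR adjusted p = 0.888). Btg2 stood at 1027 and 849 CPM against 819 and 612 CPM, and Klf6 at 1096 and 724 CPM against 722 and 659 CPM, both at an adjusted p of 1.00.

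**Figure D5:**
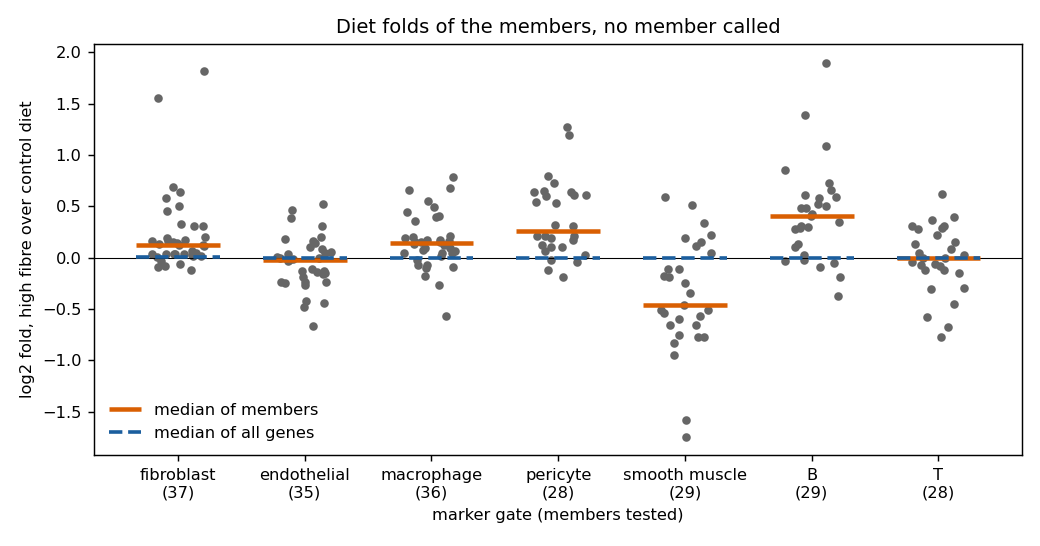
Log2 fold of high_fibre over control_diet for each member tested (points) in 7 gates, with the median of the members (orange) and of all genes (dashed blue). The members' medians run from -0.46 in smooth muscle to 0.41 in B cells, and no member is called.

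Whether the diet difference itself differed between cell types was tested with limma for the 6 pairs of the 4 gates with at least 100 cells in each library. No gene was called in any pair, members included (0% of 11626 to 13741 genes). At an unadjusted p under 0.05 there were 6 of 36 members between fibroblasts and endothelial cells, 3 of 35 between endothelial cells and pericytes, 2 of 36 between macrophages and pericytes, 1 of 36 between fibroblasts and pericytes and 0 in the other 2 pairs, against 5.31% to 5.8% of all genes over the 6 pairs. Dusp1 had the smallest p in the first pair, with a difference of 0.45 ± 0.10 on the log2 scale (limma adjusted p = 0.809), and Zfp36 differed there by 0.70 ± 0.18 (adjusted p = 0.825). With 4 libraries the absence of calls does not show that diet effects were alike in these gates.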

How the data were processed

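The authors deposited whole-number UMI counts per gene and barcode for each of 4 libraries (unit: counts). Cell Ranger 3.1.0 and the mm10 build are named in the submitters' processing notes. The 37 members, the gene lists and the gates were chosen with earlier results of these data known. Cells were kept with at least 500 UMIs, 250 genes and at most 20% mitochondrial UMIs, and 1278 doublets were removed by scoring against simulated doublets. For barcodes found in several libraries only the copy with the most UMIs was kept, a choice made after seeing the data. Cells in exactly 1 gate (summed marker UMIs of at least 10 for fibroblasts, 6 for macrophages and pericytes, 4 for endothelial, smooth muscle and B cells and 2 for T cells) were summed per library.

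Gates were compared in 1 fit over 28 sums with the library as a block, and diet within each gate, using the quasi-likelihood test of edgeR 4.0.16 (TMM, filterByExpr at a minimum count of 10, Benjamini-Hochberg adjustment over all genes of a gate, R 4.3.3). CPM values are on the scale of the joint fit. Diet effects were compared between gates with limma 3.58.1 (prior count 2), and DESeq2 1.42.0 was an alternative. The scripts were tested on simulated data. There the diet test recovered only part of the changed genes. The comparison of diet effects, run for fibroblasts against endothelial cells, did not recover the genes changed in fibroblasts. Named genes are, per gate, the 4 largest called rises and 2 largest called falls, for diet the 3 smallest p-values, and per list the 2 largest called differences in each direction; members beyond these are named to account for all 37. Promoters are RefSeq's, coordinates GENCODE M21 on GRCm38, 1-based.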

Additional observations from a re-analysis of the deposited data

Results flagged for a closer look

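The diet fold of Dusp2 had opposite signs in 2 gates, with every library of one diet group on one side of the other group in each. It was 1.82 on the log2 scale in fibroblasts, from 92 UMIs in all (33 and 43 in high_fibre, 12 and 4 in control_diet), and -0.77 in T cells, from 632 UMIs. The B-cell gate marker Cd79a gave 25, 49, 21 and 3 UMIs in the fibroblast sums of high_fibre 1 and 2 and control_diet 1 and 2, and its part was not tested. Ier2 did likewise, at 0.51 in B cells and -0.24 in endothelial cells. Both were found among the members with the smallest p-values of each gate. Diet groups that did not overlap, in either direction, were common over all genes. They made up 34.9% in fibroblasts, 31.8% in T cells, 33.1% in B cells and 34.0% in endothelial cells. None of these 4 folds passed the adjusted threshold in edgeR, and the difference between the gates was not tested for either pair.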

How the results depend on the processing

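Of 146 member and gate pairs called between cell types, 118 were called under all 13 alternatives, and the counts higher (71 to 78) and lower (66 to 76) stayed within 1.5 times of 75 and 71. Scaling by plain library size lowered the share of higher calls over all genes from 66.5% to 51.6% in macrophages, 48.5% to 37.7% in B cells and 43.7% to 32.0% in T cells, and raised it from 61.4% to 80.7% in pericytes; it moved the median of all genes in 6 gates by over 0.1. The diet comparison was unstable. The 26 genes called over the 7 gates became 59 with DESeq2, 535 with no filter on low counts and 86 to 318 when 1 library was left out. The 0 member calls became 1 with DESeq2, 9 with no filter, 4 with doubled gate minimums, 1 with plain library size and 3 to 18 when 1 library was left out. The cause was not tested.

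With the repeat number as a block, 165 genes and 6 member and gate pairs were called: Nr4a2 and Ppp1r15a in macrophages, Jun and Fos in pericytes, and Btg2 and Klf4 in B cells. Samples with the same number deviated together with correlations of 0.01 to 0.41 over genes, from 2 pairs only, so the numbers were not taken as pairs. Diet folds of 3 named genes changed sign when 1 library was left out: Egr3 in macrophages ranged from -1.14 to 0.0036 (the latter without control_diet 1), Zfp36 in macrophages from -0.40 to 0.016 (without high_fibre 2) and Klf6 in T cells from -0.018 (without high_fibre 1) to 0.59. At 1000 UMIs per cell Fos was detected in 51.9% of fibroblasts, 11.4% of endothelial cells, 81.9% of macrophages, 12.0% of pericytes, 47.1% of smooth muscle cells, 38.5% of B and 36.4% of T cells. Smooth muscle (152 cells) and T cells (336) limit what low genes can show.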
